A study of Mus musculus with 4 samples.

Results

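Fibroblasts are the cells that lay down and remodel the connective tissue between and around the tubes of an organ. In the testis they lie among the contractile peritubular myoid cells that wrap each seminiferous tubule, the Leydig cells and vessels of the interstitium, and, at the proximal end, the epithelium of the rete testis (RT), through which sperm leave the tubules. A fibrillar collagen starts as a procollagen chain that is hydroxylated and folded in the endoplasmic reticulum, is trimmed outside the cell, and is then joined into fibrils whose width is set by small leucine-rich proteoglycans and whose cross-links are made by lysyl oxidases.

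The cells described here are collagen-rich fibroblasts of the proximal testis of mice at postnatal day 14 (P14). They were chosen by a rule on detected genes. Of the barcodes with 1000 to 4500 detected genes, a cell was taken when at least 3 of Sfrp1, Angptl7, Lum, Col9a2, Col6a3 and Col5a2 had a UMI (unique molecular identifier, 1 for each captured RNA molecule), when more of these genes were detected than of a peritubular set (Tnnt2, Cyp26b1, Sct, Col4a3, Lamc3, Myh11) and than of a stromal set (Adamts5, Nrk, Igf1, Plac8, Penk, Dlk1), and when the germ cell genes Ddx4 and Dazl together had at most 1 UMI. The rule took 2025 of the 22567 retained cells. Since the cells were chosen by these counts, the differences between classes of cells below are descriptions and carry no test.

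The study compared testes with and without Sox17 in the RT. There were 4 libraries, 2 control and 2 Sox17-cKO, each from the pooled cells of 3 C57BL/6 pups, captured with the 10x Genomics 3′ chemistry from the dissected RT and the tubules next to it. In the Sox17-cKO mice (SF1Cre:Sox17flox/flox) a Cre recombinase driven by Nr5a1 (SF1) sequences, active in somatic cells of the gonad, deletes the floxed gene, so deletion is not limited by the driver to the RT. The labels give the controls as SF1Cre, whereas the methods describe controls as Sox17flox/flox littermates, so the alleles of the control pups are not settled, and an effect of Cre or of the floxed allele itself cannot be told apart from that of the deletion if they lacked it. The preparation discarded the interstitial cells freed by the first digestion, so these fibroblasts are those that stayed with the tubules and the RT.

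Libraries are named by genotype and replicate, and where 4 values are given, those of controls 1 and 2 come first and those of Sox17-cKO 1 and 2 follow. The rule gave 438, 675, 351 and 561 cells. The median cell held 4953, 9107, 5986 and 7649 UMIs, and the summed UMIs were 2329313, 6346342, 2174248 and 4464817, so that 1 UMI in control 1 stood for 0.429 CPM. CPM, the scale of all levels here, is the number of UMIs of a gene when the UMIs of the class in a library are scaled to sum to 1000000. The number of the replicate coincided with the version of Cell Ranger that counted the reads, 6.0.2 for the replicate 1 libraries and 6.1.2 for the replicate 2 libraries, and the replicate 1 libraries were the shallower ones with fewer fibroblasts. Depth, count software and replicate number cannot be told apart here. No barcode of a fibroblast was shared between libraries, and 20 to 43 barcodes were shared by any pair of libraries among all 46001.

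The targeted gene was nearly absent from these cells. Over all retained cells Sox17 gave 132, 273, 23 and 45 UMIs (3.14, 6.58, 0.684 and 1.15 CPM), so both Sox17-cKO libraries held less than both controls. The fibroblasts held 0, 1, 0 and 0 Sox17 UMIs, and a count of 0 allows up to 1.29 CPM in control 1 and 1.38 CPM in Sox17-cKO 1. Nr5a1, whose sequences drive Cre, gave 22, 115, 39 and 147 UMIs in them, or 9.44, 18.1, 17.9 and 32.9 CPM, in each library below the peritubular myoid cells of that library (15.6, 22.8, 30.2 and 40.8 CPM). Levels are counts of molecules at the 3′ end and are not scaled by transcript length, and they are shares of the UMIs of the fibroblasts in a library.

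All 6 genes of the fibroblast set were detected in 701 cells, 5 in 878, 4 in 374 and only 3 in 72 (3.56%). Among retained cells, 3563 had at least 3 of the 6 genes, of which 1215 had no fewer genes of a competing set and 323 had too many germ cell UMIs. At the edge, the 72 cells with 3 genes held 8912 CPM of Col1a1 and the 94 cells with 2 genes that otherwise met the rule held 1507, against 28683 in cells with all 6. The cells just outside the rule also held 1400 CPM of the Sertoli gene Cst9, against 213 in those just inside it.

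The genes of the rule are given as a description, since their detection was set by the choice of cells. Sfrp1, a secreted antagonist of Wnt ligands, stood at 903, 1176, 939 and 1233 CPM, and Angptl7, a secreted protein of stiff connective tissue such as the sclera and trabecular meshwork, stood at 314, 778, 609 and 727. Lum, which encodes the proteoglycan lumican, was at 553, 471, 540 and 436 CPM, and Col9a2 at 282, 463, 287 and 526. Genes outside the rule that are often used to define fibroblasts across organs were mostly lower in these cells than in the neighbouring stromal cells. Of 17 such genes, 5 were above and 3 below the myoid level in all 4 libraries. None was above and 10 were below the stromal level in all 4 libraries. Over all genes at 10 CPM or more in either class, 16% were above and 30.6% below the stromal level. The summed level of the 17 genes ran from 1138 to 2092 CPM, against 2592 to 4462 in the stromal cells. Pdgfra, a receptor of mesenchymal cells, had a mean of 303 CPM against 568 in peritubular myoid and 770 in stromal cells. Gsn and Cd34 had means of 550 and 175 CPM against 937 and 331 in the stromal cells.

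For these comparisons the rule was mirrored, which gave 2078 peritubular myoid cells by the peritubular set and 1388 Igf1 and Dlk1 stromal cells by the stromal set. Means are over the 4 libraries of both genotypes, with the SD. Among genes at 10 CPM or more in either class, 24.2% were higher in the fibroblasts than in myoid cells in all 4 libraries and 31.7% were lower. The counts of gene lists below include the rule genes that belong to them (Col5a2, Col6a3, Col9a2, Lum and Sfrp1 of the fibroblast set, Col4a3 and Cyp26b1 of the peritubular set and Igf1 of the stromal set), whose place was set by the choice of cells. Against the stromal cells 16% were higher and 30.6% lower, and against all other retained cells 23.8% and 61.1%.

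The major fibrillar collagens set these cells apart in amount. Col1a1 (chromosome 11, 94936224 to 94953042 in GRCm38), the alpha-1 chain of type I collagen, was measured at 14343, 28455, 16682 and 31122 CPM. Its mean was 22651 ± 8369 CPM (SD, n = 4) against 1820 in myoid cells and 5446 in stromal cells, and every library of the fibroblasts was above the same library of both other classes. The replicate 2 libraries were both above the replicate 1 libraries, within each genotype.

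Col1a2, the second chain of type I collagen, followed at 16354, 20093, 17609 and 21512 CPM. Col3a1, the chain of the thinner type III fibrils of extensible tissue, reached 15092, 21090, 18246 and 20695 CPM. Together Col1a1, Col1a2 and Col3a1 took 4.58%, 6.96%, 5.25% and 7.33% of all UMIs of the fibroblasts, a mean of 6.03 ± 1.33% (SD, n = 4). The same 3 genes took a mean of 0.535% in myoid cells, 1.59% in stromal cells and 0.488% in all other retained cells. Of 11 fibrillar collagen genes, 8 were above the myoid level in all 4 libraries and none was below.

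The minor fibrillar chains, which nucleate fibrils and limit their width, were present too. Col5a2, a rule gene, stood at 1103, 1104, 999 and 1002 CPM, and Col5a1 had a mean of 481 CPM against 94.8 in myoid and 261 in stromal cells. Col11a1 had a mean of 293 ± 43.2 CPM (SD, n = 4) and Col27a1 of 140 ± 30.9, against 24.8 and 11.7 in myoid cells. Type V and type XI chains are known to mix in the same fibrils.

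Collagens that sit on or between fibrils gave some of the sharpest contrasts. Type VI collagen, a beaded filament around cells, was represented by Col6a1 at 2290, 4062, 2610 and 4562 CPM and by Col6a2 at 1515, 2716, 1795 and 3327. Col14a1, a fibril-associated collagen of tendon and skin, was at 635, 623, 560 and 573 CPM, with means of 11.1 in myoid and 131 in stromal cells. Col12a1, its close relative, had a mean of 237 ± 28.9 CPM (SD, n = 4) against 4.9 and 16.6. Both are known to bridge neighbouring fibrils in tissues under tension. Of 13 fibril-associated and beaded-filament genes, 10 were above the myoid level in all 4 libraries, among them the rule genes Col6a3 and Col9a2, and 2 below.

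Col9a2 is a gene of the rule, so its level was favoured by the choice of cells, whereas those of its usual partners were not. Type IX collagen of cartilage is assembled from the products of Col9a1, Col9a2 and Col9a3 on type II fibrils. Col9a2 had a mean of 389 CPM, whereas Col9a3 was at 5.15, 4.88, 12 and 6.72 CPM and Col9a1 at 2.58, 1.58, 0.92 and 1.34. Of 16 genes of cartilage and tendon, 5 reached 10 CPM on average, and the tendon regulators Mkx and Scx had means of 31.2 and 21.9 CPM, against 0.979 and 1.86 in myoid cells. Scx held 36.5, 22.1, 8.28 and 20.8 CPM, with Sox17-cKO 1 lowest.

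Several basement membrane collagens were lower than in myoid cells. Col4a4 had a mean of 1504 CPM in the fibroblasts against 3076 in myoid cells, and Col4a3, a gene of the peritubular rule set, 356 against 1130. Col4a1 was at 644, 617, 740 and 519 CPM, below the myoid mean of 1283. Of 17 basement membrane and other non-fibrillar collagens, 8 were below the myoid level in all 4 libraries and 4 were above, among them Col8a1 (56.3 against 4.49) and Col8a2 (116 against 16.6), short-chain collagens that form lattices. Against the stromal cells 6 were above and 7 below.

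**Figure D1:**
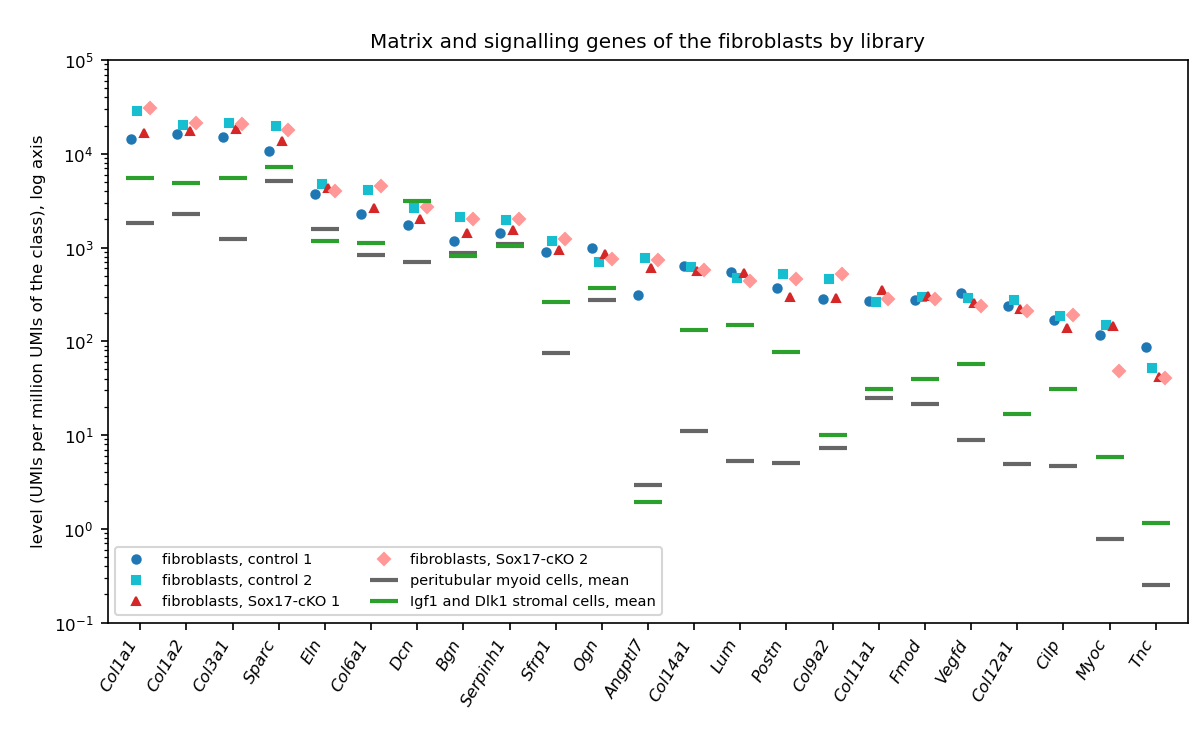
Level in CPM (log axis) of 23 matrix and signalling genes in the fibroblasts of each library, with the mean of peritubular myoid cells and of Igf1 and Dlk1 stromal cells as bars. Col1a1 runs from 14343 to 31122 with both replicate 2 libraries highest, and Lum from 436 to 553 against a mean of 5.34 in myoid cells; Dcn is the plotted gene whose stromal mean (3124) lies above all 4 fibroblast values.

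The small leucine-rich proteoglycans, which coat fibrils, were mostly higher than in myoid cells, with 11 of 13 above the myoid level in all 4 libraries. Against the stromal cells 7 were above and 3 below, and the summed levels overlapped (5084 to 6622 CPM against 3964 to 5973). Dcn, which encodes decorin, was at 1718, 2644, 2033 and 2689 CPM, above the myoid mean of 700 but below the stromal mean of 3124. Bgn (biglycan) had a mean of 1677 ± 451 CPM and Ogn (osteoglycin) of 824 ± 129 (SD, n = 4). Fmod, which encodes fibromodulin and is known to guide cross-linking, was at 274, 299, 303 and 284 CPM, against means of 21.2 and 39.3 in myoid and stromal cells. Aspn (asporin) had a mean of 205 CPM against 2.36 and 26.7.

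Most genes of the machinery that makes collagen were higher as well. Of 28 processing and cross-linking genes, 22 were above the myoid level in all 4 libraries and 1 below, and 19 were above the stromal level. Serpinh1, the collagen chaperone HSP47, was at 1420, 1977, 1525 and 2014 CPM against means of 1084 and 1042. Adamts2, which removes the amino-terminal propeptide, had a mean of 648 CPM against 185 in each of the other classes. The lysyl oxidases Loxl1 and Lox had means of 620 and 314 CPM, against 270 and 56.9 in myoid cells, and Loxl2 a mean of 116 against 4.04. Ppib, a foldase used by all secreting cells, had a mean of 1206 CPM against 1021 and 1197.

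Elastic fibre genes were also abundant. Eln, the core elastin, was at 3690, 4762, 4324 and 4029 CPM, against means of 1593 in myoid and 1165 in stromal cells. Mfap4 had a mean of 2088 CPM, Fbln5, which organizes elastin on microfibrils, 779, and Mfap2 741. Of 17 elastic fibre genes, 13 were above the myoid level in all 4 libraries and 1, Ltbp4, below.

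Among other matrix glycoproteins, Sparc, a collagen-binding protein, was the most abundant at 10745, 19680, 13522 and 17779 CPM. Postn (periostin), a matricellular protein of ligament and valve tissue, was at 368, 516, 296 and 457 CPM against a myoid mean of 5.07. Tnc (tenascin-C) was at 86.7, 52.2, 41.4 and 40.8 CPM, against means of 0.253 in myoid and 1.16 in stromal cells, the highest ratio over each class among genes of at least 50 CPM, rule genes left out. Cilp had a mean of 170 CPM and is otherwise known from cartilage and heart fibroblasts. The matricellular gene Igfbp7 was lower than in both classes, with 808 CPM against 1564 and 1715.

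Enzymes that cut matrix were mixed. Of 26 such genes and inhibitors, 12 were above and 8 below the myoid level in all 4 libraries. Mmp2, a gelatinase, was at 355, 611, 344 and 607 CPM against a myoid mean of 82.2, and Mmp23 had a mean of 283 against 13.2. Serpinf1, which encodes the secreted factor PEDF, was at 594, 1434, 704 and 1292 CPM. The aggrecanase genes Adamts4 and Adamts9 were lower than in myoid cells, with means of 20.4 and 28.5 CPM against 91.3 and 84.5.

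Among genes of at least 50 CPM, rule genes left out, the 10 with the highest ratio over all other retained cells were Myoc, Ndnf, Hmcn2, Pamr1, Tnc, Fam180a, Col12a1, Adam33, Xkr4 and Meox1. Myoc encodes myocilin, a secreted protein best known from the trabecular meshwork of the eye, where ANGPTL7 is also found. It was at 118, 148, 144 and 48.4 CPM, with Sox17-cKO 2 lowest, against a mean of 3 in the other retained cells. Fam180a was at 231, 328, 262 and 392 CPM against 12.6, and Meox1, a homeobox gene of somites and their derivatives, at 73.4, 142, 92.9 and 136 against 5.44.

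Secreted signals followed. Vegfd, a ligand of lymphatic and vascular endothelium, was at 329, 290, 257 and 239 CPM, against means of 8.9 in myoid and 56.6 in stromal cells. Pdgfrl, which encodes a secreted receptor-like protein, had a mean of 447 CPM against 7.44 and 59.9. Mdk (midkine) was at 977, 981, 932 and 1033 CPM, a narrow spread (SD 41.5). The IGF-binding genes Igfbp4 and Igfbp3 had means of 758 and 282 CPM against 88.7 and 3.04 in myoid cells. Igf1 itself, a gene of the stromal rule set, had a mean of 956 CPM, below the stromal mean of 2188. Of 43 growth factor genes, 24 were above and 6 below the myoid level in all 4 libraries, and 14 were above and 12 below the stromal level.

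In the Wnt pathway, 11 of 34 listed genes were above and 7 below the myoid level in all 4 libraries. Of the 34, 15 reached 10 CPM on average. Over all genes at 10 CPM or more in either class, 24.2% were above and 31.7% below. Besides Sfrp1, the antagonists Sfrp2 (71.7, 184, 60.7 and 74.1 CPM) and Nkd1 (mean 144 against 56.6) were higher. Rspo1, which boosts Wnt signals, had a mean of 25.6 CPM against 1.02. The ligand Wnt4 was at 64.8, 121, 132 and 221 CPM, and Wnt6 went the other way, with a mean of 15.3 against 60.7 in myoid and 152 in stromal cells.

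For TGF-beta and BMP signals, 18 of 31 genes were above and 8 below the myoid level in all 4 libraries. Fstl1, which encodes a secreted follistatin-like protein, was at 1113, 1038, 911 and 858 CPM. The ligands Tgfb2, Tgfb3 and Bmp4 had means of 143, 76.6 and 136 CPM, above both other classes, and the BMP antagonist Nog 19.3 against 1.03 in myoid cells. The target genes Id1, Id2 and Id3 were lower than in both classes, with means of 54.5, 482 and 544 CPM.

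Hedgehog signals in the testis come from Sertoli cells as desert hedgehog and are read by peritubular and interstitial cells. Ptch1, the receptor that is itself a target gene, had a mean of 21.9 CPM against 494 in myoid and 121 in stromal cells. Hhip, another target, was at 0, 0, 0 and 0.672 CPM against a myoid mean of 137. The coreceptor Gas1 was higher, with a mean of 505 CPM against 96.6. Of 14 pathway genes, 4 were above and 5 below the myoid level in all 4 libraries, and 9 reached 10 CPM on average. Over all genes at 10 CPM or more in either class, 24.2% were above and 31.7% below.

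Genes of retinoic acid metabolism, a vitamin A pathway that times germ cell entry into meiosis, were mixed. Of 17, 5 were above and 5 below the myoid level in all 4 libraries, and 8 reached 10 CPM on average. Over all genes at 10 CPM or more in either class, 24.2% were above and 31.7% below. Aldh1a1, which makes retinoic acid, had a mean of 178 CPM against 294 in myoid and 468 in stromal cells, and Dhrs3, which returns retinal to retinol, 129 against 37.9 and 61.4. Of 16 hormone receptor genes, 3 were above and 5 below. Of 20 complement and immune genes, 7 were above and 7 below the myoid level, and 10 were below the stromal level.

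Transcription factors of the gonad went both ways. Gata6 was at 157, 171, 148 and 167 CPM against means of 6.3 in myoid and 28.4 in stromal cells, whereas its relative Gata4 had a mean of 56.1 against 68.6 and 64.6. Wt1, a factor of the coelomic epithelium, Sertoli cells and gonadal stroma, was at 126, 120, 127 and 120 CPM against 11.1 and 39.1. Tcf21 and Nr2f2 were present at means of 463 and 386 CPM, below those of myoid cells (666 and 718). Of 31 factors, 17 were above and 9 below the myoid level in all 4 libraries, and 21 reached 10 CPM on average. Over all genes at 10 CPM or more in either class, 24.2% were above and 31.7% below.

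Contractile genes were intermediate. Acta2, smooth muscle actin, was at 4434, 4452, 2408 and 4168 CPM, between the stromal mean of 1242 and the myoid mean of 14522. Tagln (transgelin) was at 4230, 4906, 2690 and 4524 CPM, in each library above the myoid cells of that library (mean 2995). In both genes Sox17-cKO 1 was lowest. Of 11 peritubular myoid markers, 10 were below the myoid level in all 4 libraries and 10 above the stromal level.

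Markers of other cells of the dissection were read in the same cells. The summed level of 14 germ cell genes ran from 97.1 to 376 CPM, against 2025 to 3363 in the other retained cells and 116 to 343 in myoid cells. Since the rule limited Ddx4 and Dazl, low germ cell RNA is in part set by it. The summed level of 13 Sertoli genes ran from 1202 to 2272 CPM against 5021 to 9157 in the other retained cells and 931 to 1862 in myoid cells. Both sums were highest in the replicate 1 libraries. Leydig genes summed to 68.5 to 130 CPM, macrophage genes to 10.7 to 70.4 and mesothelial genes to 2.58 to 46.5. Pericyte and mesothelial sums were highest in control 2 (201 and 46.5 CPM). The 29 replication and mitosis genes summed to 1303, 436, 624 and 786 CPM, highest in control 1. Of 12 RT genes only 1500015O10Rik and Plscr2 reached 10 CPM on average. 1500015O10Rik, which encodes the secreted peptide augurin, was at 165, 129, 218 and 170 CPM against 46.2 in the other retained cells.

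Of 10 endothelial genes, only Kdr, the VEGF receptor 2, reached 10 CPM on average. It was at 128, 121, 109 and 114 CPM, against means of 2.85 in myoid and 16.4 in stromal cells. Cldn11, counted among the Sertoli genes as a tight junction component, was at 102, 224, 164 and 236 CPM, lowest in the replicate 1 libraries, where the sum of the Sertoli genes was highest. The part of free RNA and of doublets in these levels was not tested.

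Clustering of the fibroblasts alone gave 6 sub-clusters, which are numbered by size and described by their leading genes. Sub-cluster 1 (1113 cells) made up 58.9%, 54.8%, 56.4% and 51.2% of the fibroblasts, and sub-cluster 2 (573 cells) 28.5%, 24.6%, 31.1% and 30.8%. Sub-cluster 3 (170 cells) varied most among the larger ones, with 3.2%, 12.4%, 6.55% and 8.73%, lowest in control 1 and highest in control 2. Both Sox17-cKO shares lay above both control shares in sub-cluster 2, and the genotypes overlapped in sub-clusters 1 and 3.

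Sub-cluster 1 was led by Sh3bgr, Myoc and Ntn4, with the contractile genes. Its Tagln was at 5748, 7068, 3804 and 6841 CPM against 1511, 1460, 684 and 1574 in sub-cluster 2. Cnn1 (calponin) was at 217, 198, 54.3 and 158 CPM against 12.7, 10.1, 1.79 and 9.24. Vegfd was at 399, 430, 375 and 357 CPM against 57.8, 46.8, 48.4 and 41.2, and Angptl7 at 418, 1092, 883 and 1052 against 119, 240, 172 and 237. These genes were higher in sub-cluster 1 in 4 of 4 libraries. The sub-clusters were drawn from the RNA of these same cells, so differences between them are descriptions and carry no test.

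Sub-cluster 2 was led by Col6a5, a type VI chain, and the imprinted genes H19 and Dlk1. Its Col6a5 was at 389, 557, 758 and 644 CPM against 9.98, 42.7, 42.8 and 52.4 in sub-cluster 1, and its Wnt4 at 215, 309, 349 and 491 against 20, 54.3, 54.3 and 111. Kdr was at 240, 226, 210 and 192 CPM against 89.1, 98.9, 81.8 and 85.6. Of these 2 sub-clusters it was thus higher in the one with less contractile RNA. Rspo3, a booster of Wnt signals, was at 48.8, 38.9, 53.7 and 49.6 CPM against 2.85, 6.25, 3.06 and 8.19, whereas Rspo1 was higher in sub-cluster 1. Major collagens were shared, and Col1a1 in sub-cluster 1 was 0.911 times that in sub-cluster 2. Over pooled cells, sub-cluster 3 held less Tagln than sub-cluster 2 (673 against 1387 CPM) and also less Kdr (57.1 against 215).

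The other sub-clusters were small. Sub-cluster 3 was led by Clec3b, Slpi and Fxyd3, with Dpt at 390 CPM and Mgp, an inhibitor of calcification, at 11795 CPM over its pooled cells. Slpi, which is also on the list of mesothelial markers, rested on control 2, which held 93 of its 94 UMIs in the fibroblasts. The mesothelial markers Upk3b and Msln had 35.2 and 25 CPM in pooled sub-cluster 3. By library they ran from 0 to 60.6 (mean 15.2) and from 0 to 43.1 (mean 10.8), so each rested on 1 library. Fxyd3 ran from 0 to 88.9 CPM there (mean 23.8). Clec3b was at 0.429, 31.5, 10.6 and 2.91 CPM over all fibroblasts, highest in control 2. Sub-cluster 4 (99 cells) was led by Hist1h1b, Pclaf and Prc1 and held 487 CPM of Mki67, genes of dividing cells. Sub-cluster 5 (47 cells) was led by the steroidogenic gene Hsd3b1 and the Sertoli genes Cst9 and Aard, with the highest median of UMIs, 9677, and of mitochondrial UMIs, 7.04%. Its Hsd3b1 ran from 0 to 712 CPM over the 3 libraries with at least 10 of its cells, with a mean of 237. Sub-cluster 6 (23 cells, 18 of them in control 2 and none in control 1) was led by the pericyte gene Rgs5 and the chemokine genes Ccl7 and Ccl2, with 10.6 CPM of Angptl7. The last pair met the rule while their leading genes belong to other cell types, and they stay unnamed.

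**Figure D2:**
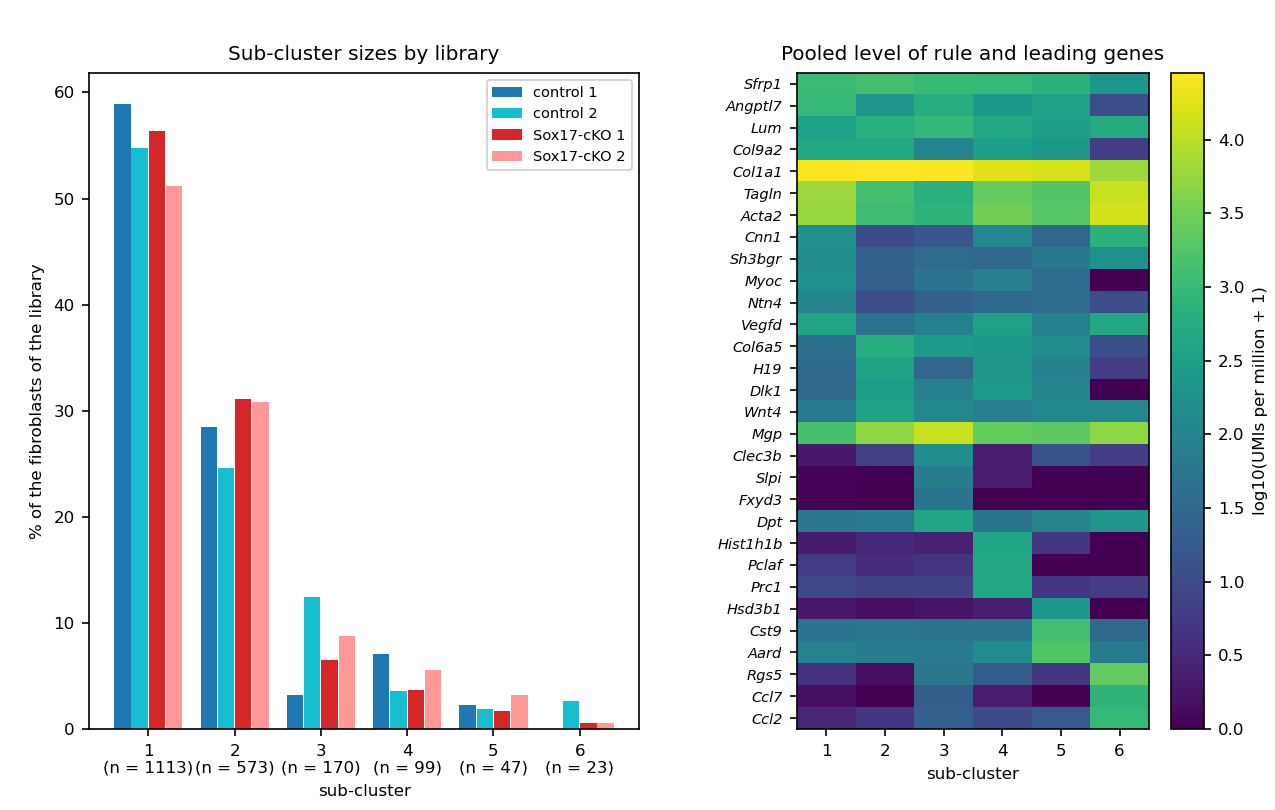
Left, share of the fibroblasts of each library (percent) in the 6 sub-clusters; right, pooled level of rule and leading genes in each as log10(CPM + 1). Sub-cluster 1 holds 51.2% to 58.9% of each library with high Tagln and Acta2, sub-cluster 2 holds 24.6% to 31.1% with high Col6a5, H19 and Dlk1, and Col1a1 is high in both.

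The share of these fibroblasts did not separate the genotypes. They were 7.14% (95% exact binomial interval 6.51 to 7.81) and 13% (12.1 to 14) of retained cells in the controls. In the Sox17-cKO libraries they were 6.21% (5.59 to 6.87) and 10.0% (9.23 to 10.8). The intervals cover counting error only. The means were 10.1% and 8.11%, a difference of -1.98 percentage points, smaller than the gap of 5.91 between the controls and of 3.8 between the Sox17-cKO libraries. With at most 10% mitochondrial UMIs it was -3.13 points, beside gaps of 4.37 and 3.11. An exact two-sided permutation test gave p = 0.667, and 4 libraries allow no p below 0.33.

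Within each replicate number the Sox17-cKO share was the lower one, and the larger step was between the numbers, with a mean of 6.67% in replicate 1 and 11.5% in replicate 2. Of the 3 mesenchymal classes together, the fibroblasts made up 52.9%, 31.9%, 60.1% and 28.6%. There the difference was 1.97 points in the other direction (exact permutation p = 1). Shares depend on which cells survived the dissociation and the discarded first digest. The limit on Ddx4 and Dazl kept out 108, 32, 109 and 74 cells that otherwise met the rule, more in the replicate 1 libraries. The part of that limit in the step between the replicate numbers was not tested.

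**Figure D3:**
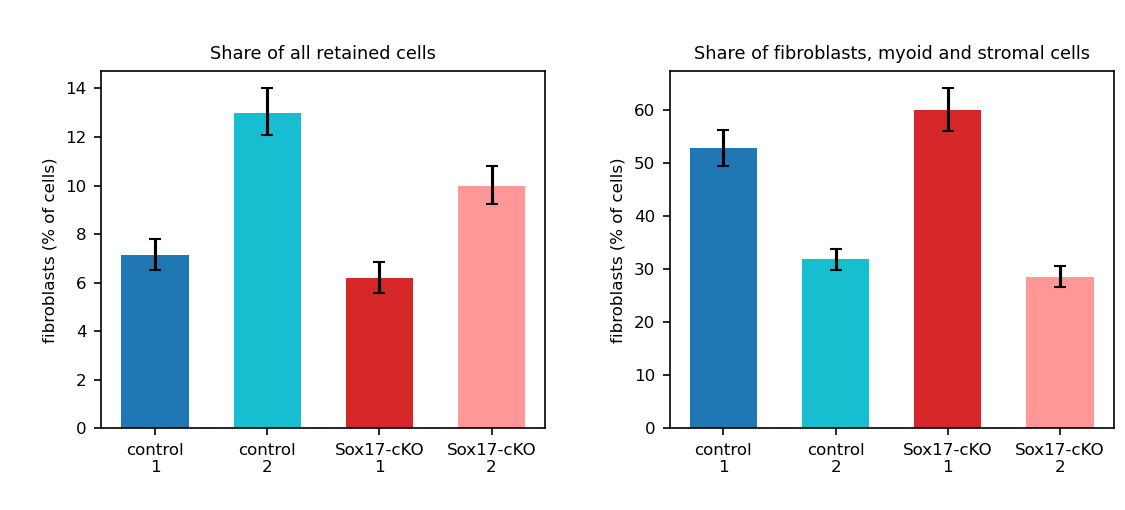
Fibroblasts as a percentage of all retained cells (left) and of fibroblasts, peritubular myoid and Igf1 and Dlk1 stromal cells together (right) in each library, with 95% exact binomial intervals. On the left the replicate 2 libraries (13% and 10.0%) lie above the replicate 1 libraries (7.14% and 6.21%), and on the right the order of the replicates is turned.

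Between genotypes, no gene of the fibroblasts passed the main test. UMIs were summed over the fibroblasts of each library and compared with edgeR, 2 libraries against 2, and a p-value measures only the spread between these libraries. Of 11441 genes tested, 0 passed an adjusted p of 0.05 (percent called 0), 89 (0.778%) had an unadjusted p under 0.05, 24 of them higher and 65 lower in Sox17-cKO, and DESeq2 called 2. Both Sox17-cKO libraries lay above both controls for 10.2% of all genes and below for 10.7%, after TMM scaling. A change that missed the threshold is not shown to be absent.

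For Col1a1 the log2 ratio of Sox17-cKO to control was 0.10 ± 0.45 (SE), and 0.15 and 0.08 within replicates 1 and 2. For Col1a2 the value was 0.04 ± 0.31 and for Col3a1 0.05 ± 0.32, and their libraries overlapped. The medians of the fibrillar collagens (9 tested), the proteoglycans (10) and the processing genes (25) were 0.10, -0.14 and -0.05, against 0.00 over all genes. The log2 ratios of the rule genes Lum and Sfrp1, given as a description, were -0.13 and 0.00.

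The 2 genes that DESeq2 called were the inducible HSP70 genes Hspa1a and Hspa1b, which heat shock factor 1 switches on when proteins unfold. They lie side by side on chromosome 17 of GRCm38, Hspa1a at 34969190 to 34972156 and Hspa1b at 34956436 to 34959238, both on the minus strand. Their promoters are shown because the paralogs moved together. The genes are also known to be nearly the same in sequence, so that reads may have been split between them or lost. That was not tested, and the promoter bases do not bear on it. The 150 bases before each start, from RefSeq on GRCm38.p6 (chr17:34972157-34972306 and chr17:34959239-34959388, minus strand), are given with matches to GAANNTTC in capitals, 2 units of the heat shock element, a motif that reads alike on both strands.
Hspa1a: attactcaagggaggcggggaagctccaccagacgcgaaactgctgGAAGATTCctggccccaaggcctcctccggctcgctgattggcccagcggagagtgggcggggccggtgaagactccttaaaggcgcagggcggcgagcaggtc
Hspa1b: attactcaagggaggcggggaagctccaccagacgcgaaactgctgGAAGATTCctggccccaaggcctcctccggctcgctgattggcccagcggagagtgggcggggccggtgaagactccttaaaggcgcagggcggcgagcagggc

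These stretches were identical at 149 of 150 positions, and the match ran from base 104 to base 97 before the start in both. Over 250 upstream bases the motif occurred in 6.69% of 32851 promoters, and in a promoter of 7.73% of 27025 genes. Among the immediate early and heat shock genes, 21 of 25 had a promoter in the table and 4 held a match, Fosl2, Jun, Hspa1a and Hspa1b.

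Hspa1a was at 616 and 433 CPM in the controls and at 131 and 168 in the Sox17-cKO libraries. Both Sox17-cKO values were below both controls, within each replicate number by -2.29 and -1.42 on the log2 scale. The fitted change was -1.87 ± 0.30 (log2, SE), with an adjusted p of 1 in edgeR and of 0.00011 in DESeq2. Hspa1b was at 484, 274, 110 and 127 CPM, a change of -1.73 ± 0.33, with an adjusted p of 1 in edgeR and 0.00511 in DESeq2.

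Both large sub-clusters had the same order of libraries by genotype. In sub-cluster 1 Hspa1a was at 611, 496, 140 and 168 CPM and in sub-cluster 2 at 598, 343, 96.7 and 192. In the neighbouring classes it was at 140, 119, 71.6 and 87.8 CPM in myoid cells and 239, 307, 101 and 159 in stromal cells. The heat shock cochaperone Dnajb1 was at 250, 182, 118 and 90.5 CPM in the fibroblasts (-1.11 ± 0.28). These genes are also known to respond to the time and temperature of dissociation, and the handling of single libraries is not given in the sources used here, so handling and genotype cannot be told apart.

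Of 25 immediate early and heat shock genes tested, none passed the threshold, 13 were lower in both Sox17-cKO libraries than in both controls and none higher, against 10.7% and 10.2% of all genes. The median log2 ratio of the list was -0.35 against 0.00 over all genes, with -0.25 and -0.63 within the replicates, and -0.15 in myoid and -0.19 in stromal cells. Atf3, a stress-induced transcription factor, was at 99.2, 133, 57 and 36.3 CPM (-1.39 ± 0.31). Fos, the most abundant member, was at 4183, 2877, 3208 and 2562 CPM, so its groups overlapped.

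A few matrix and signalling genes are given as values that missed the threshold. Ctgf and Cyr61, targets of the YAP coactivator, were at 423, 461, 256 and 180 CPM and at 484, 781, 339 and 369. Thbs1, an activator of latent TGF-beta, was at 117, 138, 81.9 and 60 CPM. Of 27 TGF-beta and BMP genes tested, 10 were lower in both Sox17-cKO libraries and 1 higher, with a median of -0.12, and of 21 other matrix glycoproteins 6 were lower and 1 higher. Over all genes tested 10.7% were lower and 10.2% higher in this sense, with a median of 0.00. Id1 was at 79, 57.2, 42.3 and 39.4 CPM and Nog at 22.8, 24.1, 14.3 and 16.1. Tnc, high in control 1, was at 86.7, 52.2, 41.4 and 40.8.

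Among the 11 peritubular myoid markers, 4 were lower in both Sox17-cKO libraries, against 10.7% of all genes, and the median log2 ratio was -0.39 against 0.00. For Cnn1 the ratio was -2.09 in replicate 1 and -0.56 in replicate 2, and for Acta2 -0.95 and -0.15. In both genes Sox17-cKO 1 stood lowest. In sub-cluster 1 alone Acta2 was at 5797, 6189, 3366 and 6347 CPM, so its groups overlapped there. In sub-cluster 2 it was at 1639, 1241, 460 and 1206 CPM, with both Sox17-cKO values below both controls. The median of the list was -0.30 in sub-cluster 1 and -0.19 in sub-cluster 2. The part of the mix of sub-clusters in these differences was not tested. Of the other genes with the smallest unadjusted p, Rgs4, an inhibitor of G protein signals, was at 19.3, 16.4, 5.98 and 7.62 CPM and the long noncoding Carmn of contractile cells at 22.8, 26, 14.3 and 11.6. Maff and Ccdc85b each had a log2 ratio of -1.16.

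The set of genes at an unadjusted p under 0.05 changed with the fit. With the replicate number as a block it held 460 genes, 179 higher and 281 lower in Sox17-cKO. Whether the 89 genes as a set kept their direction in other fits was not tested. Among the genes with higher values in Sox17-cKO, AC149090.1 was at 12.5, 15.9, 39.6 and 36.3 CPM (1.33 ± 0.27), and at 17.2, 12, 41.4 and 29.4 in myoid cells. Fcer1g, a signalling chain of macrophages and mast cells, rested on 3, 4, 27 and 28 UMIs in the fibroblasts. The 11 macrophage genes, Fcer1g among them, summed to 10.7, 22.5, 70.4 and 30.2 CPM, and their part in its level was not tested. Jade3, Cd82, Slc25a13, Angptl4, Ptpre, Tulp2, Arap2 and Hist2h2ac had fitted changes between 0.86 and 1.76, at levels of 1.42 to 24.9 CPM. Wnt4, outside that set, was at 64.8, 121, 132 and 221 CPM, higher within each replicate number by 0.96 and 0.82.

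**Figure D4:**
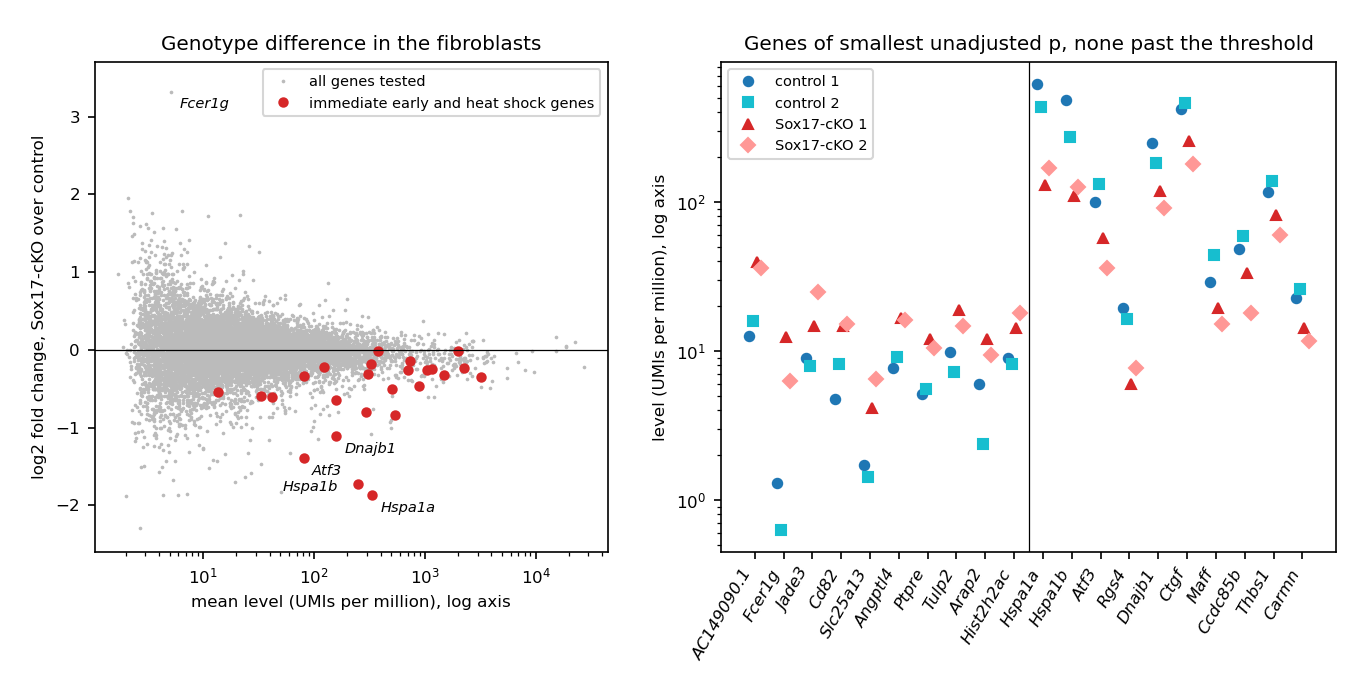
Left, log2 fold change from control to Sox17-cKO against the mean level (CPM, log axis) of every gene tested in the fibroblasts, with immediate early and heat shock genes in red; right, level in each library (log axis) of the 10 genes higher and the 10 lower in Sox17-cKO with the smallest unadjusted p. Hspa1a (616 and 433 in the controls, 131 and 168 in Sox17-cKO) and Hspa1b are the lowest of the red points, and no gene of either panel passed the adjusted threshold in edgeR.

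Whether a genotype change differed between the fibroblasts and their neighbours was tested as an interaction, with the library as a block. Against myoid cells, 17 of 12109 genes (0.14%) passed, 3 with a higher and 14 with a lower change in the fibroblasts. Several of the strongest rested on 1 library: Slpi, a secreted protease inhibitor, had 0, 93, 0 and 1 UMIs in the fibroblasts, and the chemokine gene Cxcl2 had 0, 9, 125 and 5. Hsd3b1 and Cyp17a1, steroidogenic enzymes of Leydig cells, had 0, 116, 0 and 5 and 0, 79, 1 and 6 UMIs. Without control 2, Slpi, Cxcl2, Hsd3b1, Cyp17a1 and Kcnk3 were no longer past the threshold, with differences of -5.39, 3.16, -0.59, 0.19 and -3.30. Without Sox17-cKO 2, Slpi (-6.21), Hsd3b1 (-9.39), Cyp17a1 (-4.90) and Kcnk3 (-5.43) also lost it, and without Sox17-cKO 1 so did Cxcl2 (4.61).

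Genes of higher level also passed. For Hspa1a the log2 ratio was -1.87 in the fibroblasts and -0.73 in myoid cells, a difference of -1.07 ± 0.18 (adjusted p = 0.00282 in edgeR and 0.0147 in DESeq2). Cnn1 was at 157, 142, 38.2 and 99.9 CPM in the fibroblasts and at 360, 512, 364 and 544 in myoid cells, a difference of -1.17 ± 0.22 (adjusted p = 0.00701 in edgeR and 0.0407 in DESeq2). In edgeR neither gene passed between genotypes within the fibroblasts. With at least 4 rule genes required, only 1 gene with a lower change in the fibroblasts passed the edgeR interaction. Hspa1a and Cnn1 both had a lower change, so they did not both keep their calls under that setting.

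Against the Igf1 and Dlk1 stromal cells, 9 of 11988 genes (0.0751%) passed in edgeR and 7 in DESeq2. Of the 9, 7 had a higher change in the fibroblasts. Col14a1 was at 635, 623, 560 and 573 CPM in the fibroblasts and at 213, 174, 64.6 and 71.5 in the stromal cells. The log2 ratio was -0.21 in the fibroblasts and -1.56 in the stromal cells, a difference of 1.29 ± 0.19 (adjusted p = 0.0169 in edgeR and 0.00983 in DESeq2). Between genotypes in the stromal cells, the median log2 ratio was -0.61 for the fibrillar collagens, -0.42 for the universal fibroblast genes, 1.10 for the macrophage markers and -4.41 for the 3 mesothelial markers tested, against 0.01 over all genes, and of these genes 1 mesothelial marker passed the threshold. The part of the make-up of the stromal class in these differences was not tested.

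Postn was at 368, 516, 296 and 457 CPM in the fibroblasts and at 88.3, 152, 15.1 and 48.5 in the stromal cells, a difference of 1.53 ± 0.23 (adjusted p = 0.0235 in edgeR and 0.0361 in DESeq2). Lum, also among the 9, is a gene of the rule that kept cells out of the stromal class, so its levels there (196, 228, 92.6 and 83.8 CPM) are bound to the choice of cells and are given as a description. Without control 2, Col14a1 and Postn gave differences of 1.45 and 1.31 and were no longer past the threshold.

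Dpt (dermatopontin), Col6a5 and Cthrc1 had differences of 1.39, 1.54 and 2.99. In DESeq2 the adjusted p was 0.0198 for Col6a5, and the calls of Dpt (0.189), Cthrc1 (0.825), Cxcl2 (1) and Hsd3b1 (1) were lost. Without control 2, Col6a5, Dpt and Cthrc1 were no longer past the threshold in edgeR either. Col6a5 was at 106, 116, 36.6 and 65.5 CPM in the stromal cells. Cthrc1 rested on 4, 62, 0 and 5 UMIs in the stromal cells. The stromal class held 109 and 84 cells in the replicate 1 libraries, against 660 and 535 in the replicate 2 libraries, so its replicate 1 sums were the thinnest used. Cyp17a1 (-4.60), Hsd3b1 (-4.91) and Cxcl2 (6.15) were again among those called, on few UMIs in the fibroblasts. Without control 2 the difference for Cyp17a1 was -0.37 and no longer past the threshold, and that for Cxcl2 ran from 3.80 to 12.32 with a library left out.

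**Figure D5:**
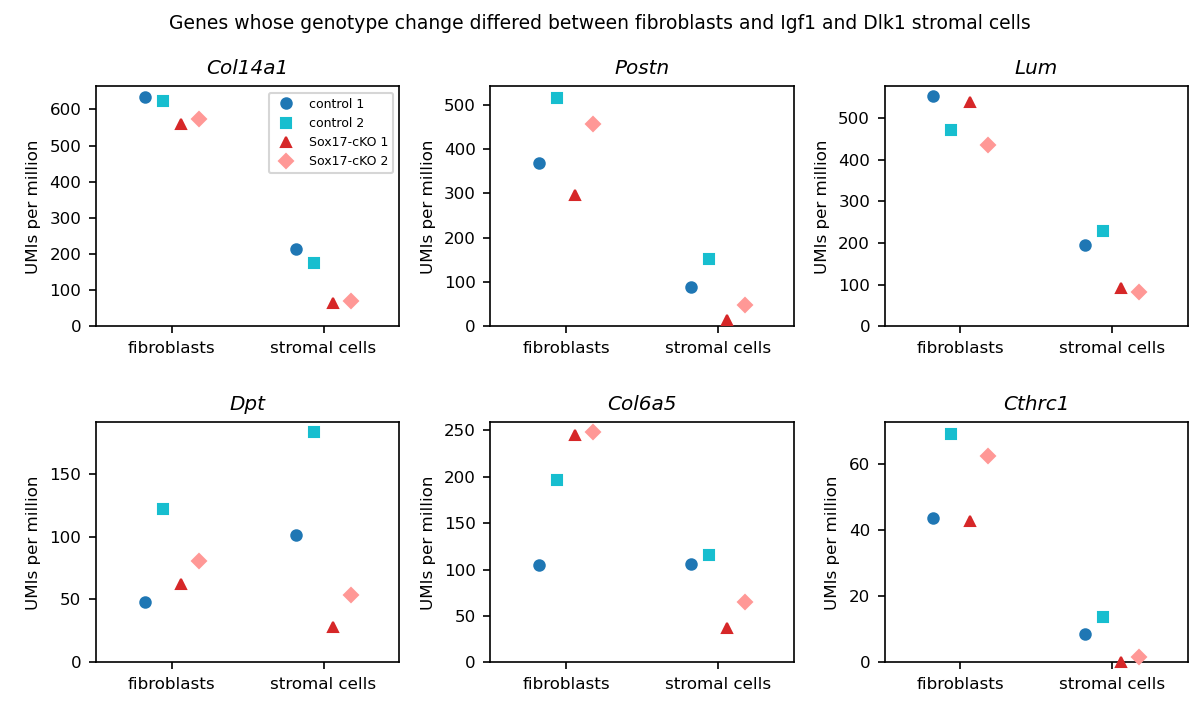
Level in CPM of 6 genes in the fibroblasts and the Igf1 and Dlk1 stromal cells of each library, for genes whose genotype change differed between these classes in edgeR, with Lum, a gene of the rule, as a description. Col14a1 is 560 to 635 in the fibroblasts, whereas the stromal sums are 213 and 174 in the controls and 64.6 and 71.5 in Sox17-cKO.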

How the data were processed

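The authors aligned 10x Genomics 3′ reads and collapsed them to UMIs with Cell Ranger (6.0.2 in the replicate 1 and 6.1.2 in the replicate 2 libraries per the file headers) against mm10. The deposited values are whole counts for 31053 genes, not normalized. Barcodes with 1000 to 4500 detected genes were kept, without a limit on mitochondrial UMIs, and doublets were not removed, though a marker screen was an alternative. The members and gene lists were chosen with earlier results of these data known. UMIs were summed per library and class. edgeR 4.0.16 (TMM, filterByExpr, quasi-likelihood test, Benjamini-Hochberg, threshold 0.05, two-sided) compared genotypes and tested interactions, and DESeq2 1.42.0 was an alternative, in R 4.3.3. Levels are CPM without TMM scaling. Fibroblasts were clustered on 2000 variable genes with 20 components and 20 neighbours by leidenalg 0.10.2 at a resolution of 0.4 (SciPy 1.17.1, NumPy 2.4.6, Python 3.11.15). The edgeR steps were tested on simulated data. Coordinates are from GENCODE vM21, which held 30934 of the identifiers. Named genes were drawn from the rule genes, the 4 most abundant genes of each list, the genes of highest or lowest ratio between classes, 10 genes in each direction with the smallest p and no overlap between genotypes, Sox17 and Nr5a1, the 5 leading genes of each interaction and the 3 of each sub-cluster. Other genes, such as Wt1, Gata6, Ptch1 and Cyr61, were named after their values were seen.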

Additional observations from a re-analysis of the deposited data

Results flagged for a closer look

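The genotype change differed between the fibroblasts and the peritubular myoid cells for 17 genes and between the fibroblasts and the Igf1 and Dlk1 stromal cells for 9 genes, by edgeR's test of the interaction. The log2 differences of the changes, fibroblasts minus myoid cells, were -11.67 for Slpi, 6.84 for Cxcl2, -5.82 for Hsd3b1, -3.80 for Cyp17a1 and -3.29 for Kcnk3. In the fibroblasts of control 1 these genes had 0, 0, 0, 0 and 4 UMIs, and most of their UMIs came from control 2, or for Cxcl2 from Sox17-cKO 1. Kcnk3 and Cxcl2 were among the leading genes of the sub-cluster of 23 cells led by Rgs5, Hsd3b1 and Cyp17a1 among those of the sub-cluster of 47 cells, and Slpi of the sub-cluster of 170 cells.

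Against the stromal cells the differences were -4.60 for Cyp17a1, 6.15 for Cxcl2, 1.29 for Col14a1, 1.53 for Postn and 1.21 for Lum. Lum is a gene of the rule that chose the cells of both classes, so its value is a description and not a test. For Col14a1 and Postn the level in the stromal cells was lower in both Sox17-cKO libraries than in both controls.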

How the results depend on the processing

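Counts of genes past the threshold moved with the processing. Between genotypes the count of 0 became 26 without a filter on low counts and 2 with DESeq2, and 1 to 51 when a library was left out, most without control 1. The lone library of a genotype is then assumed to vary like the other group. With the replicate number as a block the count was 0, with a smallest adjusted p of 0.058. It was also 0 with RLE scaling, at least 4 rule genes, at most 10% mitochondrial UMIs or no upper limit on genes. In alternatives chosen after seeing the data, it was 0 without the small sub-clusters or in either large one alone. The marker screen gave 0 as well, but it left few cells and 2960 genes to test, so that count says little. Its lists included genes found throughout these fibroblasts: Kdr (109 to 128 CPM), Cldn11 (102 to 236) and 1500015O10Rik (129 to 218). A cell could be dropped for these genes, so the loss of cells is not a measure of doublets. Whether libraries of the same replicate number shared a litter or a preparation batch is not given. Their deviations from the genotype mean correlated by 0.453 within a number and by -0.453 across numbers. With 2 libraries per genotype these deviations mirror each other, so the correlations are 1 value.

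The interaction count of 17 against myoid cells became 46 without the filter, 4 with DESeq2, 3 with at least 4 rule genes and 10 with at most 10% mitochondrial UMIs, and 2 to 48 with a library left out. The 9 against stromal cells became 43 without the filter and 2 to 73 with a library left out. The difference for Cyp17a1 from myoid cells ran from -4.90 to 0.19 with a library left out, reversed without control 2. The interactions were not run under the marker screen, which left no myoid or stromal cells in Sox17-cKO 1.

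The difference in share turned to 1.97 points with the 3 mesenchymal classes as denominator and to 0.969 without control 2, and ran from -4.94 to 0.969 with a library left out. Of 1000 levels over 125 genes, 946 stayed within 1 SD. Of the 54 that moved, 52 did so under the marker screen, which kept 18, 72, 4 and 46 fibroblasts. Leaving out 1 of the 4 libraries cannot shift a mean by 1 SD. The 125 levels of each such setting were therefore bound to stay and say nothing on stability.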
